A study of Mus musculus with 2 samples.

Results

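Transcripts of 7 caspases were followed across the cells of the mouse retinal pigment epithelium (RPE) and choroid, namely Casp1, Casp2, Casp4, Casp6, Casp8, Casp9 and Casp12. They are 7 of the 32285 genes in the deposited count tables and were matched by symbol, and other caspase genes were not analysed here. The tables hold 2 single-cell libraries from C57BL/6J mice aged 3 months, 1 library per condition, and 5 mice gave their 10 eyes to each pool, taken 7 days after a subretinal injection of 1 µl. The control eyes received phosphate-buffered saline and the Dox eyes received doxorubicin at 100 ng/µl, a DNA intercalator that poisons topoisomerase II. The layer of RPE, choroid and sclera was dissociated with papain, so that fibroblasts, melanocytes, immune and vascular cells were captured with the RPE. The pooling leaves no replicate in either condition.

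Caspases are cysteine proteases that cut proteins after aspartate and are made as inactive precursors. Initiator caspases (Casp2, Casp8 and Casp9) are activated on protein platforms, the executioner Casp6 cuts structural proteins such as lamin A, and the inflammatory caspases (Casp1, Casp4 and Casp12, of which mouse Casp4 is also called caspase-11) belong to the family that processes cytokines and opens the gasdermin D pore. Inflammasome activity in the RPE has been studied as a contributor to macular degeneration. Messenger RNA does not report cleavage, so the values below are transcript levels and not protease activity.

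RPE cells were the cells with at least 10 unique molecular identifiers (UMIs, 1 per captured transcript) of Rpe65, the retinoid isomerase of the visual cycle. They were 1526 of the 20180 control cells kept (7.56%) and 1630 of the 15426 Dox cells kept (10.6%), with a median of 16013.5 and 18115.5 UMIs per cell. Their 12 RPE marker genes were all detected and together held 173617 UMIs per 1000000 UMIs of these cells (CPM) in control RPE and 172481 CPM in Dox-RPE. RPE cells were also split by Serpina3n, a secreted protease inhibitor of the acute-phase response, at 1000 CPM: 15 control RPE cells (0.983%) and 208 Dox-RPE cells (12.8%) were at or above it, and 8 and 28 cells lay between 800 and 1250 CPM. Material of other cells was present in these droplets and differed between the libraries. The 16 fibroblast markers summed to 2369 CPM in control RPE and 1554 CPM in Dox-RPE, with 15 of the 16 genes detected in each. The 14 macrophage markers, all detected, summed to 407 and 195 CPM. Of this sum Csf1r held 92.2 and 87.8 CPM, while C1qb was at 21.2 and 2.85 CPM. Lyz2 was at 58.6 and 12.2 CPM, and Cd74 at 101 and 44.2 CPM. Of the control RPE cells 21.8%, and of the Dox-RPE cells 11.6%, were among the highest doublet scores of their library. The share of a library counted as highest rose with its number of kept cells, 20180 in control and 15426 in Dox. These 2 percentages therefore cannot show by themselves that doublets differed between the libraries. The 2 libraries shared 441 cell barcodes, of which 3 belonged to RPE cells in both. With 1 library per condition no test between the conditions exists, and every interval given is a 95% interval of counting error alone.

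The 7 genes lie on 5 chromosomes, and the 3 inflammatory members sit side by side on the plus strand of chromosome 9 (GRCm38, GENCODE vM21): Casp1 at chr9:5298517-5307265, Casp4 at chr9:5308828-5336783 and Casp12 at chr9:5345430-5373032. Casp9 spans chr4:141793612-141815976 and overlaps Cela2a and Ctrc on the opposite strand, 2 digestive protease genes without a UMI in any RPE cell of either library. Casp2 is at chr6:42264985-42282508, Casp6 at chr3:129901425-129914103 and Casp8 at chr1:58795374-58847503. The upstream sequences of the 3 neighbours and of Casp9 are shown to set the inflammatory members beside the member that was higher in Dox-RPE. Each is 200 bases before the RefSeq start (GRCm38.p6), 5′ to 3′ on the plus strand, with CG dinucleotides in capitals, at chr9:5298317-5298516 for Casp1, chr9:5308649-5308848 for Casp4, chr9:5345276-5345475 for Casp12 and chr4:141793412-141793611 for Casp9.

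Casp1: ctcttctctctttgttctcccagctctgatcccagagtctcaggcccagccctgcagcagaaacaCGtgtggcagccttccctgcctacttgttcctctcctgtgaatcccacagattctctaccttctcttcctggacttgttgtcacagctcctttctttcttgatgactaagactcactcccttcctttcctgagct
Casp4: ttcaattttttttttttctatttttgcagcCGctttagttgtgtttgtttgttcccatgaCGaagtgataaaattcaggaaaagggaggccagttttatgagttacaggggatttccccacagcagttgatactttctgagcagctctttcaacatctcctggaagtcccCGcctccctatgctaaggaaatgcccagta
Casp12: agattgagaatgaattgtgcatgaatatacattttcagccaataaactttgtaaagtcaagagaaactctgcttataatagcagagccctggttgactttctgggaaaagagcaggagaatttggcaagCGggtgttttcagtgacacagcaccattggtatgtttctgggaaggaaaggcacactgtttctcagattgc
Casp9: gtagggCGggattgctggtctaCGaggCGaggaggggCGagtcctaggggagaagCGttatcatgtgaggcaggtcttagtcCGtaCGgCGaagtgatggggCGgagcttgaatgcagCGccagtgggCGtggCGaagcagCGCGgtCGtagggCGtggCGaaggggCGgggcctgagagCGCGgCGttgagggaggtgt

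The printed Casp9 sequence held 21 CG dinucleotides, against 1 for Casp1, 3 for Casp4 and 1 for Casp12. In windows of 300 bases, 250 before and 50 after the start, the count was 28 for Casp9, 26 for Casp2, 16 for Casp6, 5 for Casp8, 5 for Casp4, 3 for Casp1 and 3 for Casp12. The median of 32851 mouse promoters was 7, and 43.5% held at least 10. For Casp4, Casp8 and Casp12 the RefSeq start lay inside the gene span given above, so the printed Casp4 and Casp12 sequences run into those spans. The 200 upstream bases of Casp8 were at chr1:58802302-58802501. Another RefSeq start of Casp4, with its 200 upstream bases at chr9:5308660-5308859, is not printed. The core of the interferon-stimulated response element, GAAA then any 2 bases then GAAA, searched on both strands, was in none of the members' windows and in 3.44% of all promoters. The STAT-type letters TTCNNNGAA, also searched on both strands, occurred in the Casp12 window alone among the members, at bases -102 to -94 and -36 to -28 from the start, and in 8.3% of all promoters.

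In RPE cells Casp6, Casp8 and Casp9 were captured in over 200 UMIs per library and the inflammatory members were nearly absent. Casp6 was counted at 26.9 CPM (707 UMIs, interval 24.9 to 28.9) in control RPE and 24.9 CPM (778 UMIs, 23.2 to 26.8) in Dox-RPE. Casp8 was at 12.3 CPM (324 UMIs, 11 to 13.7) and 12.5 CPM (389 UMIs, 11.3 to 13.8). These 2 genes thus had overlapping intervals in the 2 libraries, and so did Casp2, the initiator of the PIDDosome, at 3.00 CPM (79 UMIs) and 2.53 CPM (79 UMIs). Casp9, which the Apaf1 apoptosome activates, was at 7.94 CPM (209 UMIs, 6.90 to 9.10) in control RPE and 9.78 CPM (305 UMIs, 8.71 to 10.9) in Dox-RPE. Casp12 had 46 and 32 UMIs (1.75 and 1.03 CPM), Casp4 had 23 and 18 (0.874 and 0.577 CPM), and Casp1 had 2 and 1. The inflammatory members together were therefore seen in few RPE cells of either library.

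A UMI of Casp6 was found in 34.6% of control and 35.2% of Dox-RPE cells, of Casp8 in 18% and 20.4%, of Casp9 in 13.0% and 16.4%, and of Casp2 in 5.05% and 4.6%. For the inflammatory members the shares were 2.82% and 1.72% for Casp12, 1.31% and 0.982% for Casp4, and 0.131% and 0.0613% for Casp1. These shares follow depth: with each RPE cell thinned to 2000 UMIs, which left out 32 control and 41 Dox-RPE cells, Casp6 would be seen in 5.06% and 4.58%, Casp8 in 2.74% and 2.55%, and Casp9 in 1.59% and 2.02%. No member UMI was found in 694 of the 1526 control and 703 of the 1630 Dox-RPE cells, 1 member in 569 and 617, 2 members in 216 and 257, 3 members in 46 and 48, and 4 members in 1 and 5 cells.

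**Figure D1:**
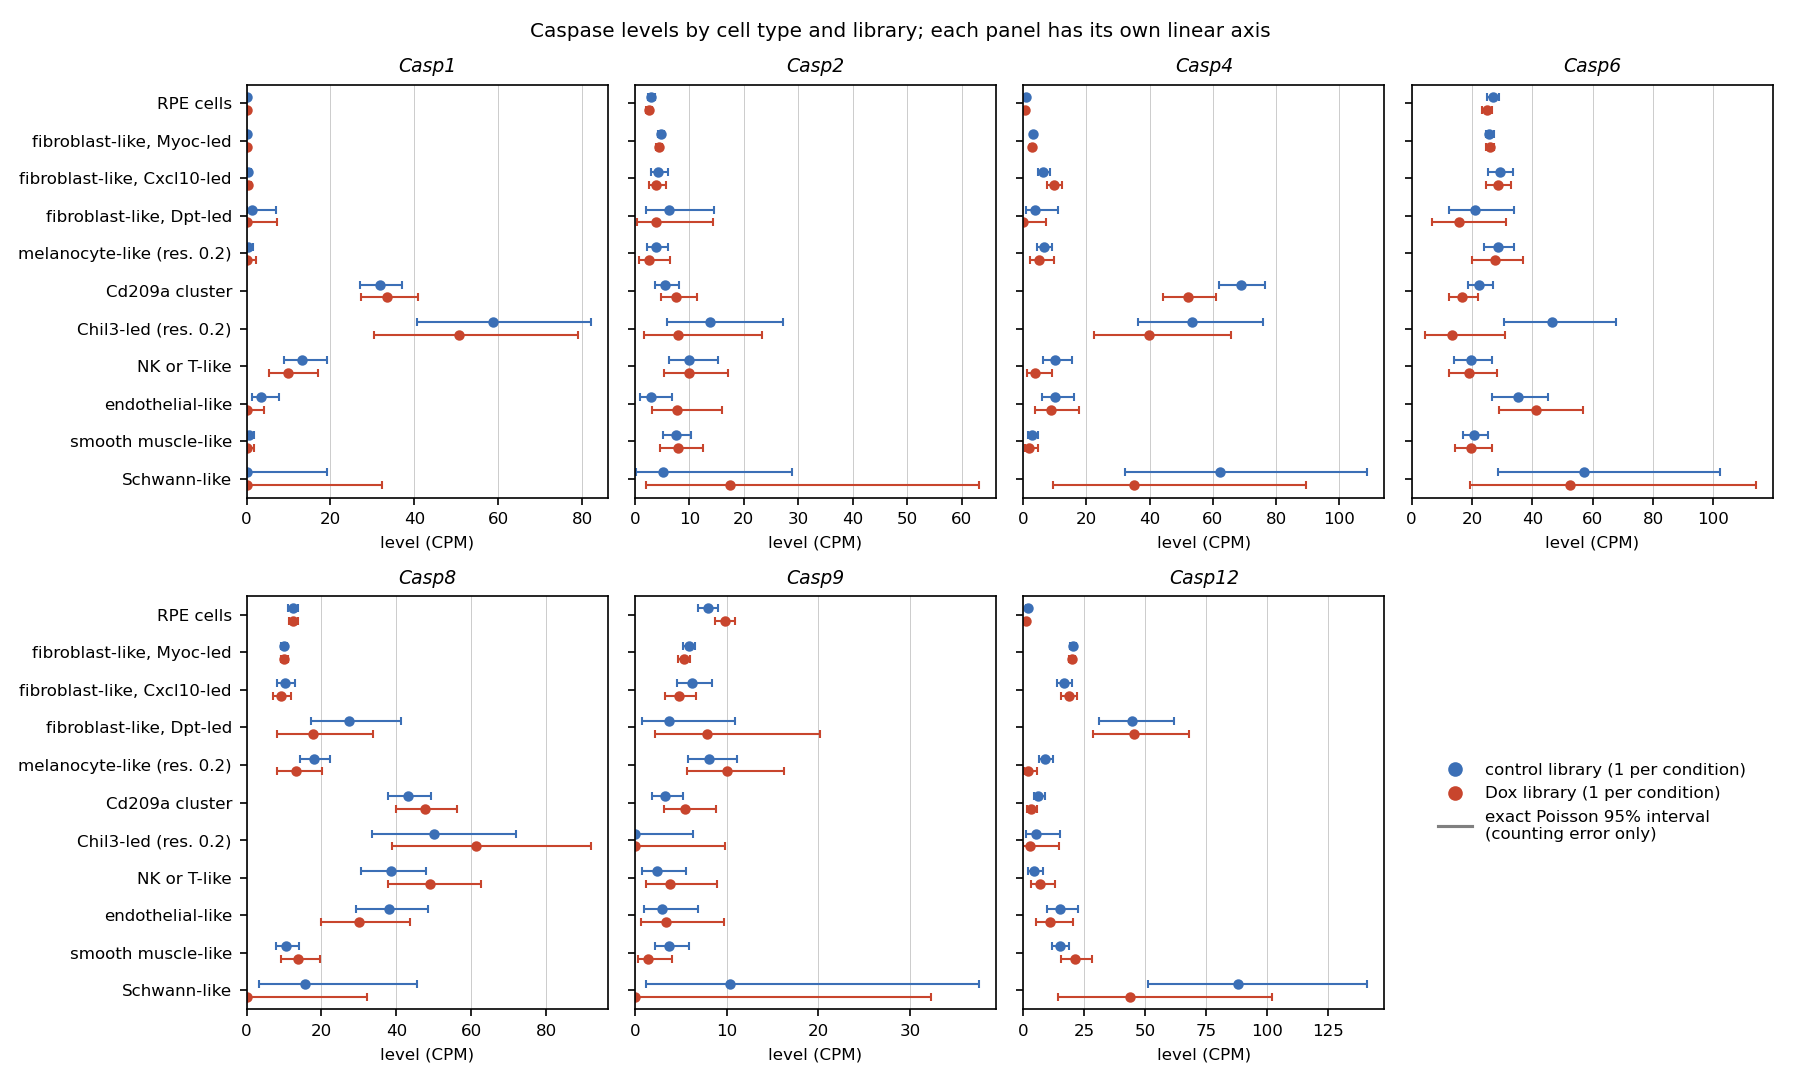
Level of each caspase in CPM (linear axis, 1 scale per panel) in RPE cells and in the other cell groups, with the control library in blue, the Dox library in red and exact Poisson 95% intervals of counting error; the melanocyte-like and Chil3-led groups come from the finer clustering at resolution 0.2. Casp1 stood highest in immune cells and Casp4 in the Cd209a cluster and Schwann-like cells, both near 0 in RPE cells, while Casp6 lay between 24.9 and 26.9 CPM in RPE cells and was of similar level in fibroblasts.

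The inflammatory members were held by cells outside the RPE. RPE cells contributed 22.8% of all UMIs of the control library and 31.4% of the Dox library, yet 0.901% and 0.794% of the Casp1 UMIs, 3.10% and 4.47% of the Casp4 UMIs and 2.82% and 2.52% of the Casp12 UMIs. Their share of Casp9 UMIs was instead 29.2% (interval 25.9% to 32.7%) for control and 45.3% (41.4% to 49.1%) for Dox, above their share of all UMIs in both libraries. Cell groups other than RPE cells were clusters named from marker lists, so their differences are a description and were not tested.

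Casp1, the protease that matures interleukin-1β and interleukin-18, was highest, among the 11 cell groups of the main clustering, in a myeloid cluster. All 14 macrophage markers reached 10 CPM in this cluster, but of its 10 leading genes only Cd209a was among them, and the others included H2-DMb2, Clec4b1, Clec10a, Napsa and Mgl2, which dendritic cells also express, behind the antibody genes Ighv1-55 and Igkv4-91. It is therefore called the Cd209a cluster and given no cell type name. Casp1 was at 31.7 CPM (164 UMIs) in control and 33.5 CPM (98 UMIs) in Dox there, against 0.0760 and 0.0321 CPM in RPE cells. Intervals of the Cd209a cluster over RPE cells lay above 0 for 38.6% of all genes in control and 33.9% in Dox, and below 0 for 35.6% and 35%. The log2 ratio for Casp1 was 8.71 (interval 6.83 to 11.76) for the control library and 10.03 (7.52 to 15.35) for the Dox library. A cluster led by Chil3 and Cd177 in the finer clustering, 93 control and 57 Dox cells, held Casp1 at 58.7 and 50.5 CPM. The NK or T-like cluster, led by granzyme genes, followed at 13.3 and 9.95 CPM, below the Cd209a cluster and above the next group beyond counting error in both libraries. In no cell group did the interval of Casp1 between Dox and control leave out 0.

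Casp4, the receptor for cytosolic lipopolysaccharide, was likewise at its highest value among these groups in the Cd209a cluster, at 68.9 CPM (356 UMIs) in control and 52.0 CPM (152 UMIs) in Dox. Within these cells it was higher where the complement genes C1qa, C1qb and C1qc together had at least 3 UMIs, at 97.2 and 74.3 CPM, than where they had fewer, at 46.1 and 37.4 CPM. The log2 ratio between the 2 sets was 1.08 (0.76 to 1.40) for control cells and 0.99 (0.51 to 1.48) for Dox cells, and intervals above 0 were found for 22.5% and 21.8% of all genes in this comparison. Casp1 showed no such split, with log2 ratios of -0.29 (-0.77 to 0.17) and 0.19 (-0.42 to 0.80). Cells of the Cd209a cluster from the Dox library had less Casp4 than those of the control library, with a log2 ratio of -0.41 (-0.69 to -0.13), and 9.55% of all genes had an interval below 0 there. The ratio was -0.39 (-0.76 to -0.02) in the cells with at least 3 C1q UMIs, where 6.56% of genes had an interval below 0, and -0.30 (-0.75 to 0.13) in the others.

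Among fibroblasts, Casp4 differed by cluster and library. The cluster led by the interferon-induced chemokines Cxcl10 and Cxcl9 had 6.28 CPM (44 UMIs) in control and 9.68 CPM (67 UMIs) in Dox, and the large cluster led by Myoc had 3.06 CPM (179 UMIs) and 2.62 CPM (127 UMIs). The log2 ratio of the former over the latter was 1.04 (0.53 to 1.52) for control cells and 1.89 (1.44 to 2.32) for Dox cells, with intervals above 0 for 11% and 10.6% of all genes. Dox over control was 0.62 (0.05 to 1.21) in the Cxcl10-led cluster, where 6.77% of all genes had an interval above 0, and -0.22 (-0.56 to 0.11) in the Myoc-led cluster. Casp1 had 2 UMIs in the Cxcl10-led cluster in each library. The small Schwann-like cluster, 59 control and 32 Dox cells, held Casp4 at 62.3 CPM (12 UMIs) and 35.0 CPM (4 UMIs), and its interval overlapped that of the Cd209a cluster in both libraries.

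Casp12, an inflammatory caspase long associated with the endoplasmic reticulum, had another distribution than its chromosomal neighbours. It was at 20.3 CPM (1344 UMIs) in control and 19.9 CPM (1115 UMIs) in Dox over the 3 fibroblast-like clusters, whose ratio was -0.02 (-0.14 to 0.09) on the log2 scale. Fibroblasts exceeded RPE cells by 3.54 (3.11 to 3.99) and 4.28 (3.77 to 4.84) on that scale, where 49.6% and 50.1% of all genes had an interval above 0. The Dpt-led fibroblast-like cluster had 44.7 CPM (36 UMIs) and 45.4 CPM (23 UMIs), and the Schwann-like cluster 88.2 CPM (17 UMIs) and 43.7 CPM (5 UMIs). Smooth muscle-like cells had 15 and 21.2 CPM, endothelial-like cells 15.2 and 11.1 CPM, and the Cd209a cluster 6.19 and 3.08 CPM. Melanocyte-like cells at resolution 0.2 had 8.97 CPM (42 UMIs) and 1.88 CPM (3 UMIs), for a log2 ratio of -2.26 (-4.59 to -0.61), where 8.88% of all genes had an interval below 0; the median depth of these cells was 3963.5 and 1286.5 UMIs. RPE material moved with it, with Rpe65 at 251.4 and 589 CPM and Serpina3n at 24.6 and 200 CPM, and its part in the ratio was not tested.

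**Figure D2:**
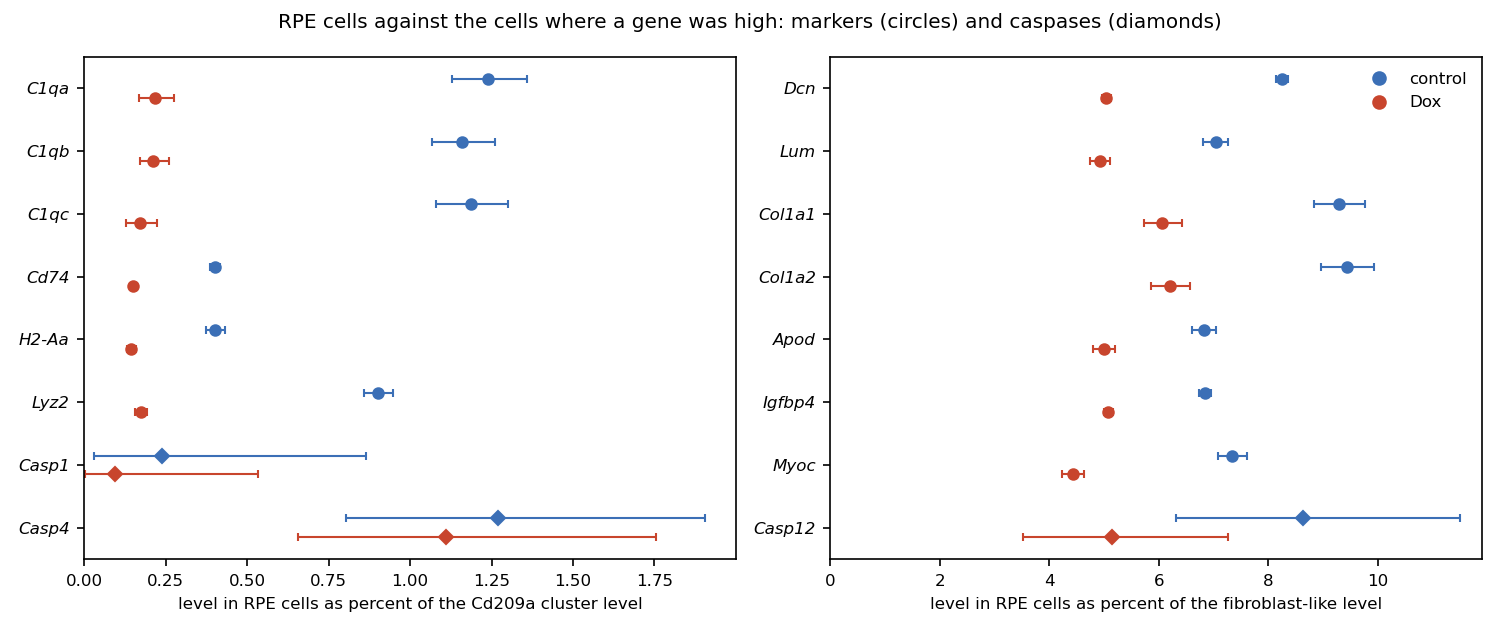
Level in RPE cells as a percent of the level in the Cd209a cluster (left) or in the 3 fibroblast-like clusters (right), for marker genes (circles) and caspases (diamonds), control in blue and Dox in red; bars are 95% intervals from the UMIs in RPE cells alone, and Csf1r, at 28.4% and 32.7%, is left out of the left panel. Casp12 lay at 8.62% and 5.14%, among the fibroblast markers shown for each library.

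In RPE cells the level of Casp12 stood to its fibroblast level as 7 of the 16 fibroblast markers did. It was 8.62% of the fibroblast level in control RPE and 5.14% in Dox-RPE. The 7 genes (Dcn, Lum, Col1a1, Col1a2, Apod, Igfbp4 and Myoc) ranged from 6.82% to 9.43% and from 4.43% to 6.20%. The other markers of the list were not compared in this way, so the likeness holds for these 7 alone. Where the Casp12 UMIs of RPE cells came from was not tested. The 43 control RPE cells with a Casp12 UMI had a median of 7197 CPM of fibroblast markers, against 304 CPM in the other 1483, and the 28 such Dox-RPE cells had 7273 CPM against 181 CPM. Of these cells 60.5% and 53.6% were among the highest doublet scores, compared with 20.7% and 10.9% of the RPE cells without a Casp12 UMI. Dox over control in RPE cells was -0.77 (-1.47 to -0.09) on the log2 scale for Casp12, next to the lower fibroblast marker level of Dox-RPE given above, and the part of that material in the ratio was not tested. The interval included 0 in 4 of the 9 settings that could be computed. In Serpina3n-low RPE cells, 1511 in control and 1422 in Dox, the Casp12 interval included 0. In RPE cells below 1000 CPM of fibroblast markers Casp12 was at 0.439 CPM in control (8 UMIs) and 0.233 CPM in Dox (6 UMIs). Over all RPE cells it was at 1.75 and 1.03 CPM. The ratio in the gated cells was -0.92 (-2.72 to 0.80), an interval too wide to set beside that of all RPE cells.

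Casp4 in RPE cells was at 1.27% of its level in the Cd209a cluster in control and 1.11% in Dox, and at 25.6% and 16.6% of its fibroblast level. Casp1 was at 0.240% and 0.0956% of its level in the Cd209a cluster, where C1qa, C1qb and C1qc ranged from 1.16% to 1.24% in control and from 0.172% to 0.217% in Dox, and Cd74 was at 0.401% and 0.150%. The 20 control RPE cells with a Casp4 UMI had a median of 1104 CPM of fibroblast markers against 316 CPM in the rest, and the 16 Dox-RPE cells 4994 CPM against 183 CPM. Dox over control was -0.60 (-1.57 to 0.35) for Casp4 in all RPE cells. Among the 1326 control and 1407 Dox-RPE cells that also fell in the RPE-like cluster, it was -1.34 (-2.66 to -0.12; 19 against 9 UMIs), where 15.4% of all genes had an interval below 0. This set of cells was the exception, since the Casp4 interval included 0 in 8 of the 9 settings that could be computed.

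Casp8, which starts apoptosis at death receptors and holds back necroptosis, was highest in lymphoid and myeloid cells. NK or T-like cells had 38.6 CPM (81 UMIs) in control and 49.0 CPM (64 UMIs) in Dox, the Cd209a cluster 43.1 CPM (223 UMIs) and 47.5 CPM (139 UMIs), and endothelial-like cells 38.0 CPM (65 UMIs) and 30.0 CPM (27 UMIs). In the control library these 3 groups could not be ordered within counting error. Cells of the Cd209a cluster exceeded RPE cells by 1.81 (1.56 to 2.06) and 1.93 (1.64 to 2.21) on the log2 scale. RPE cells in turn were slightly above the fibroblasts, whose log2 ratio over RPE cells was -0.26 (-0.45 to -0.07) for control and -0.31 (-0.49 to -0.12) for Dox. NK or T-like cells without a UMI of Cd3 genes, 117 control and 96 Dox cells, had 46.2 CPM (19 UMIs) and 69.3 CPM (31 UMIs), and those with one had 36.7 and 38.4 CPM. Cells with over cells without gave -0.33 (-1.09 to 0.49) in control and -0.85 (-1.60 to -0.09) in Dox, where 10.7% of all genes had an interval below 0. Dox over control in RPE cells was 0.02 (-0.20 to 0.24), and no cell group with UMIs in both libraries had an interval that left out 0.

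Casp9 was, with Casp8, one of 2 members that were higher in RPE cells than in fibroblasts in both libraries. RPE cells had 7.94 and 9.78 CPM, melanocyte-like cells at resolution 0.2 had 8.12 CPM (38 UMIs) and 10.0 CPM (16 UMIs), and the 3 fibroblast-like clusters had 5.87 CPM (389 UMIs) and 5.29 CPM (296 UMIs). Fibroblasts over RPE cells gave -0.44 (-0.68 to -0.19) for control and -0.89 (-1.12 to -0.65) for Dox, and 32.3% and 33.5% of all genes had an interval below 0 in these comparisons. Cells of the Cd209a cluster were also below RPE cells, at 3.29 and 5.47 CPM, and the Chil3-led cluster had 0 UMIs in both libraries, which allows up to 6.36 and 9.81 CPM.

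Dox over control for Casp9 in RPE cells was 0.30 (0.04 to 0.56), the only member whose interval lay above 0, where 9.08% of the 14215 genes tested did. The ratio was 0.31 (0.05 to 0.57) in the RPE-like cluster, where 8.53% of genes had an interval above 0, and 0.28 (-0.01 to 0.57) in RPE cells below 1000 CPM of fibroblast markers. With RPE cells ordered by depth into 3 sets of near equal number (shallow, middle and deep), control RPE had 7.18, 9.59 and 7.2 CPM, and Dox-RPE 9.93, 12 and 8.54 CPM. Each set was higher in the Dox library, with overlapping intervals. In fibroblasts the same ratio was -0.15 (-0.37 to 0.07).

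Casp2 was low throughout. Among groups with at least 10 UMIs in each library it was highest in NK or T-like cells (10.0 CPM, 21 UMIs, and 9.95 CPM, 13 UMIs) and in smooth muscle-like cells (7.49 CPM, 36 UMIs, and 7.83 CPM, 17 UMIs), and RPE cells were below fibroblasts by 0.68 (0.32 to 1.05) and 0.78 (0.41 to 1.16) on the log2 scale. Dox over control was -0.25 (-0.71 to 0.22) in RPE cells, and in none of the 11 cell groups did the interval leave out 0. Within RPE cells Casp2 was at 6.24 CPM in the shallow and 2.15 CPM in the deep set of control, and 5.84 and 2.29 CPM in Dox.

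Casp6 had like levels in RPE cells and fibroblasts. It was at 26.9 CPM in control RPE and 26.1 CPM (1731 UMIs) in control fibroblasts, and at 24.9 and 26.2 CPM (1466 UMIs) in the Dox library. Fibroblasts over RPE cells gave -0.04 (-0.17 to 0.09) and 0.07 (-0.05 to 0.20). Endothelial-like cells had 35.1 and 41.2 CPM, smooth muscle-like cells 20.8 and 19.8 CPM, and Schwann-like cells 57.1 CPM (11 UMIs) and 52.5 CPM (6 UMIs). Dox over control was -0.11 (-0.26 to 0.04) in RPE cells and 0.01 (-0.10 to 0.11) in fibroblasts. The Chil3-led cluster differed between the libraries, with 46.6 CPM (27 UMIs) and 13.3 CPM (5 UMIs), for a log2 ratio of -1.81 (-3.54 to -0.41), where 4.81% of all genes had an interval below 0.

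**Figure D3:**
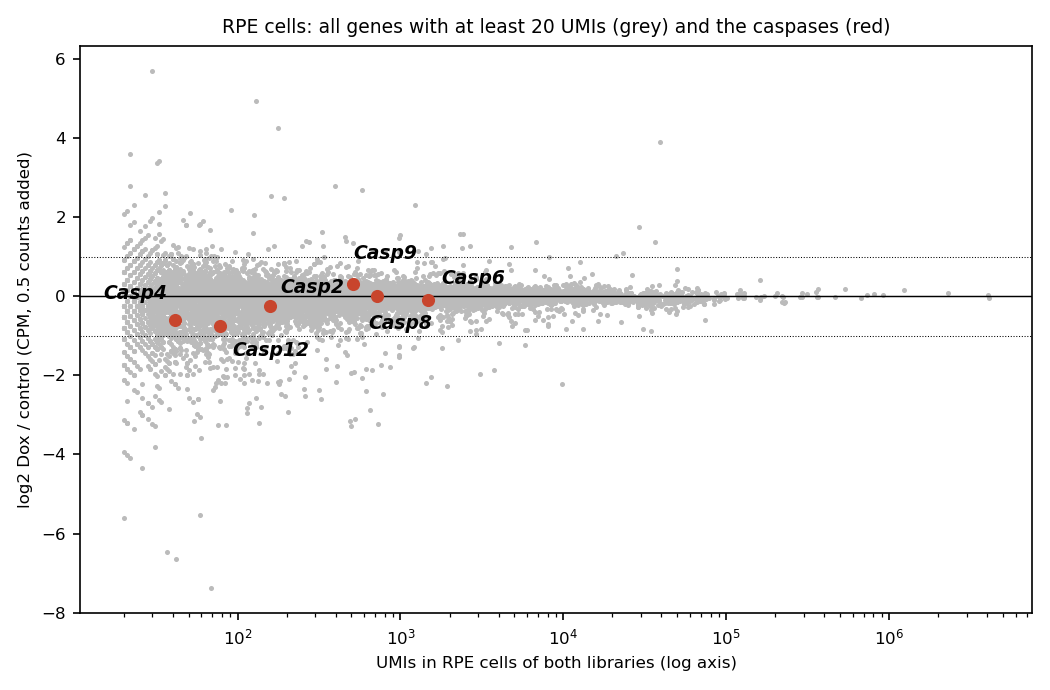
Log2 ratio of Dox over control in RPE cells (0.5 counts added to each side) against the summed UMIs of both libraries on a log axis, for the 14215 genes with at least 20 UMIs (grey) and the 6 caspases among them (red); dotted lines mark 2-fold. All 6 caspases lay inside the dotted lines, from -0.77 for Casp12 to 0.30 for Casp9.

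Set against all genes, the ratios of the members in RPE cells were small. Of the 14215 genes with at least 20 UMIs, 133 (0.936%) were at least 2-fold higher and 463 (3.26%) at least 2-fold lower in Dox-RPE, and none of the 6 members counted that often passed either limit. Intervals above 0 were found for 9.08% of genes and 1 of 6 members (Casp9), and intervals below 0 for 14.7% and 1 of 6 members (Casp12). The median log2 ratio was -0.18 over the 6 members and -0.02 over all genes. Over the 11 cell groups, 69 ratios of a member had UMIs in both libraries, of which 3 had an interval above and 4 below 0. Among all genes with at least 20 UMIs, 4.58% to 13.8% had an interval above 0 and 4.82% to 15.7% below, depending on the group. The 69 ratios had no such minimum, so they and these shares are not at the same limit. Beside those given above, the member ratios that left out 0 were Casp4 in the unnamed cluster led by Snhg7os, at 16.6 CPM (42 UMIs) and 4.42 CPM (6 UMIs), and Casp12 in the same cluster, at 11.1 CPM (28 UMIs) and 22.1 CPM (30 UMIs). In that cluster 10.2% of all genes had an interval above 0 and 8% below. Casp12 was lower in a cluster led by Hbb-bs, a haemoglobin chain, at 9.11 CPM (54 UMIs) and 4.98 CPM (14 UMIs), where 15.7% of genes had an interval below 0. All 12 melanocyte markers reached 10 CPM in it. It shared the leading genes Hhatl, Scrg1 and Pmel with the melanocyte-like cells at resolution 0.2. Both come from clusterings of the same kept cells, so the 2 Casp12 ratios cannot be taken as 2 separate groups. The content of the Hbb-bs-led cluster differed between the libraries, with a median of 28744 and 8902 CPM of melanocyte markers per cell, and the part of this in the ratio was not tested. Rpe65 was at 515 and 1429 CPM there, after cells with at least 10 Rpe65 UMIs had been set apart, which caps that level by depth.

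Cells that met the Rpe65 rule but clustered elsewhere held more Casp12. Of these, 95 control and 109 Dox cells fell in the unnamed cluster led by Snhg7os. Another 69 and 44 fell in the Hbb-bs-led cluster, and 20 and 57 in fibroblast-like clusters. The other cells of these clusters had more Casp12 than RPE cells in both libraries, and the part of their material in the values below was not tested. In the 200 control and 223 Dox-RPE cells that fell outside the RPE-like cluster, with medians of 4830 and 4507 UMIs, Casp12 was at 6.88 CPM (9 UMIs) and 7.63 CPM (10 UMIs), against 1.48 and 0.736 CPM inside it. Outside over inside gave 2.22 (0.98 to 3.29) and 3.37 (2.13 to 4.51), where 37.8% and 43% of all genes had an interval above 0. Casp4 was at 3.06 and 6.87 CPM outside and 0.76 and 0.301 CPM inside, where 19 of its 23 control UMIs and 9 of its 18 Dox UMIs lay. Casp9 was at 5.35 CPM (7 UMIs) and 4.58 CPM (6 UMIs) outside and 8.08 and 10 CPM inside. Cells with 10 to 14 Rpe65 UMIs, just inside the limit, had 4.97 and 4.91 CPM of Casp12, and cells with 5 to 9, just outside it, had 14.1 and 13.9 CPM.

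**Figure D4:**
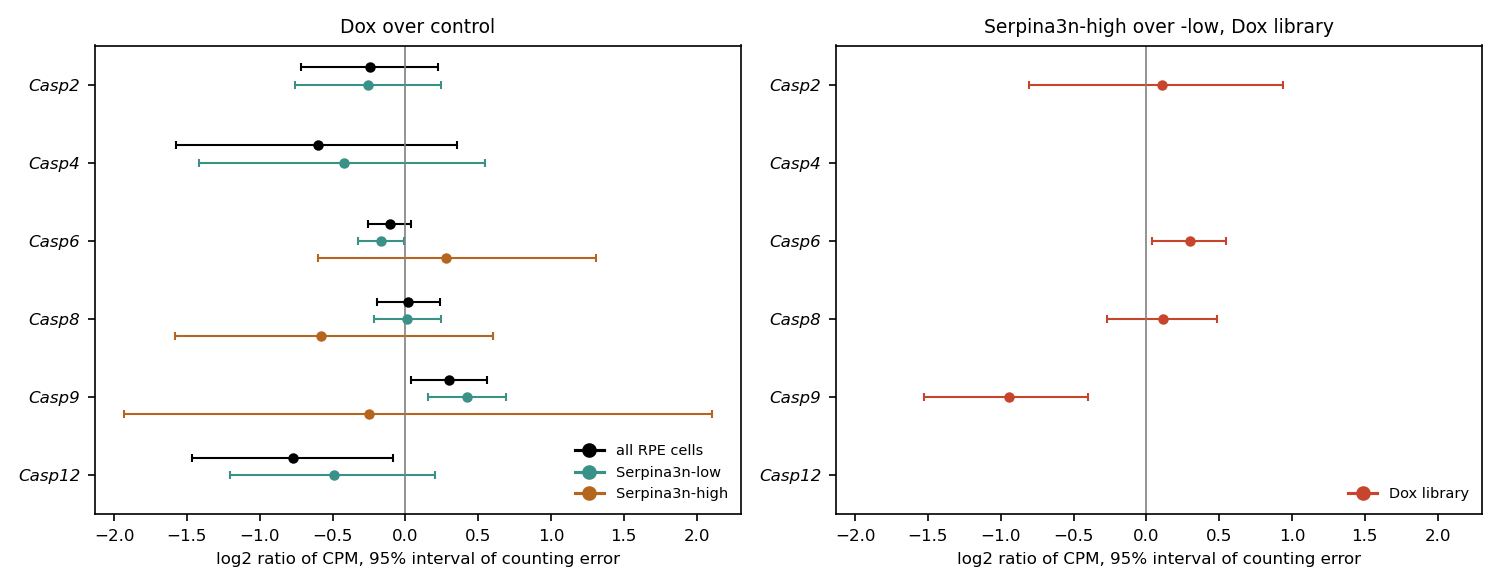
Log2 ratios with 95% intervals of counting error in RPE cells: Dox over control (left) for all RPE cells, Serpina3n-low and Serpina3n-high cells, and Serpina3n-high over Serpina3n-low cells of the Dox library (right). Ratios with under 20 UMIs in all or under 3 UMIs on a side are not drawn, Casp1 among them; the left panel shows Casp9 above 0 in all and in Serpina3n-low cells (0.30 and 0.42), and the right panel shows Casp9 below 0 (-0.94) and Casp6 above 0 (0.30).

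RPE cells were next split by Serpina3n. In Serpina3n-low cells Casp9 was at 7.97 CPM (206 UMIs) in control and 10.7 CPM (274 UMIs) in Dox, with a log2 ratio of 0.42 (0.16 to 0.69), and 10.8% of all genes had an interval above 0. In the 208 Serpina3n-high cells of the Dox library Casp9 was at 5.57 CPM (31 UMIs, 3.78 to 7.91). High over low in that library gave -0.94 (-1.53 to -0.40) for Casp9, in a comparison where 30.4% of all genes had an interval below 0 and the median of all genes was -0.19. Of the 5 members with at least 20 UMIs there, 2 lay below 0 (Casp9 and Casp12) and 1 above (Casp6). The 15 Serpina3n-high control cells had 3 Casp9 UMIs (6.63 CPM, 1.37 to 19.4), too few to set beside the Dox cells.

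Casp6 went the other way, at 24.0 CPM (614 UMIs) in Serpina3n-low and 29.5 CPM (164 UMIs) in Serpina3n-high cells of the Dox library, with a log2 ratio of 0.30 (0.04 to 0.55), where 10.8% of all genes had an interval above 0. Between the libraries, Casp6 in Serpina3n-low cells was 26.9 CPM and then 24.0 CPM with Dox, for a log2 ratio of -0.17 (-0.33 to -0.01), where 12% of all genes had an interval below 0, and the interval of Casp6 included 0 in 5 of 11 settings. Casp8 was at 12.3 and 13.3 CPM in the low and high cells of the Dox library, with a ratio of 0.11 (-0.27 to 0.48), and Casp2 gave 0.11 (-0.81 to 0.94). Casp12 and Casp4 each had 1 UMI in the 208 cells, against 31 and 17 UMIs in the 1422 Serpina3n-low cells, which gave ratios of -2.75 (-8.10 to -0.17) and -1.88 (-7.27 to 0.79). Fibroblast markers were at 594 CPM in the high and 1762 CPM in the low cells, and the part of this difference in the Casp12 ratio was not tested. High and low cells also differed in depth, with medians of 28244 and 16608 UMIs.

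The platform, partner and related genes of each caspase were counted in the same RPE cells, as gene lists. Each count of Dox over control below is to be read against 9.08% of all genes with an interval above 0, 14.7% below and a median of -0.02. For the inflammasome and pyroptosis list, 10 of 20 genes had at least 20 UMIs, 1 had an interval above and 5 below 0, and the median log2 ratio was -0.34. Il1b, the cytokine that Casp1 matures, was at 10.4 CPM (274 UMIs) in control and 1.70 CPM (53 UMIs) in Dox-RPE, a log2 ratio of -2.62 (-3.07 to -2.19), and Nlrp3, an inflammasome sensor, gave -1.69 (-2.56 to -0.89). Both were far higher in the Cd209a cluster, Il1b at 2721 and 2597 CPM and Nlrp3 at 304 and 259 CPM. The summed macrophage markers were lower in Dox-RPE as given above, and C1qb and Lyz2 by more than that sum. The part of that material in the 2 ratios was not tested. Pycard, the adaptor ASC, was at 11.2 and 13.2 CPM (0.23, 0.01 to 0.45), and Il18 at 50.3 and 48.8 CPM (-0.04, -0.15 to 0.06). Gsdmd, the pore protein, was at 3.46 and 2.82 CPM in RPE cells (-0.29, -0.73 to 0.14) and at 40.5 and 41.4 CPM in Myoc-led fibroblasts. RPE cells thus held Il18 and Pycard transcripts beside 2 and 1 UMIs of Casp1, and Il18 was higher in RPE cells than in the Cd209a cluster, at 15.5 and 20.9 CPM.

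In the death receptor and necroptosis list, 18 of 20 genes were counted often enough, 3 with an interval above and 4 below 0 (9.08% and 14.7% of all genes), with a median of -0.02. Fadd, the adaptor that recruits Casp8, gave 0.01 (-0.22 to 0.23), and Cflar, its catalytically inactive relative, 0.05 (-0.04 to 0.13). Tnfrsf10b, a death receptor and p53 target, was at 7.11 CPM (187 UMIs) and 10.9 CPM (341 UMIs), with a ratio of 0.62 (0.36 to 0.89), and Fas gave 0.33 (0.01 to 0.64). The cytokine Tnf gave -1.68 (-2.37 to -1.03, 73 against 27 UMIs). Macrophage markers were lower in Dox-RPE as given above, and the part of that material in the Tnf ratio was not tested. For Serpina3n-high over low cells of the Dox library, 4 of 15 genes of the list lay above and 5 below 0, where 10.8% and 30.4% of all genes did, with a median of -0.23 against -0.19 over all genes. The 4 above were Bid and 3 receptors, Fas by 1.43 (1.01 to 1.84), Tnfrsf1a by 1.19 (1.08 to 1.30) and Tnfrsf10b by 1.03 (0.69 to 1.37). Of the 15 genes, 4 were at least 2-fold higher and 2 at least 2-fold lower, and the 5 below 0 are not named here. Bid, which Casp8 cuts to reach mitochondria, gave 1.07 (0.23 to 1.86; 20 against 44 UMIs), beside the Casp8 ratio of 0.11. Ripk3 and Mlkl, the necroptosis effectors, had 14 and 12 UMIs in control RPE and 16 and 11 in Dox-RPE.

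The apoptosome and mitochondrial list had 14 of 16 genes counted, 1 above and 3 below 0 (9.08% and 14.7% of all genes), with a median of -0.02, and Septin4, which the tables hold under an older symbol, was not matched. Apaf1, the scaffold that binds Casp9, was at 2.62 CPM (69 UMIs) and 3.17 CPM (99 UMIs), with a ratio of 0.28 (-0.18 to 0.74). Xiap, the inhibitor of Casp9, gave -0.02 (-0.13 to 0.10), and Cycs, cytochrome c, 0.16 (0.11 to 0.22). For Serpina3n-high over low cells of the Dox library, 2 of 14 genes of the list lay above and 3 below 0, where 10.8% and 30.4% of all genes did. Xiap was lower (-0.61, -0.86 to -0.37) and Cycs higher (0.50, 0.41 to 0.58) in the high cells, while Apaf1 gave 0.48 (-0.26 to 1.17).

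All 6 genes of the PIDDosome list (Pidd1, Cradd, Nol3, Madd, Espl1 and Mdm2) were counted, with a median of 0.37. Of these, 3 had an interval above 0, where 9.08% of all genes had one, and none below, where 14.7% did. Of the platform itself the list holds Pidd1 and Cradd, so this is not a count of PIDDosome parts. Pidd1, the scaffold that recruits Casp2 and a p53 target, had 6 UMIs in control RPE and 20 in Dox-RPE (0.228 and 0.641 CPM), a log2 ratio of 1.49 (0.12 to 3.10). Within the Dox library it gave 1.62 (0.12 to 3.03) in Serpina3n-high over low cells. Mdm2 gave 0.40 (0.25 to 0.56), Nol3 gave 0.37 (0.21 to 0.52), and Cradd, the adaptor between Pidd1 and Casp2, -0.14 (-0.41 to 0.13). Casp2 itself did not differ beyond counting error in either comparison.

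**Figure D5:**
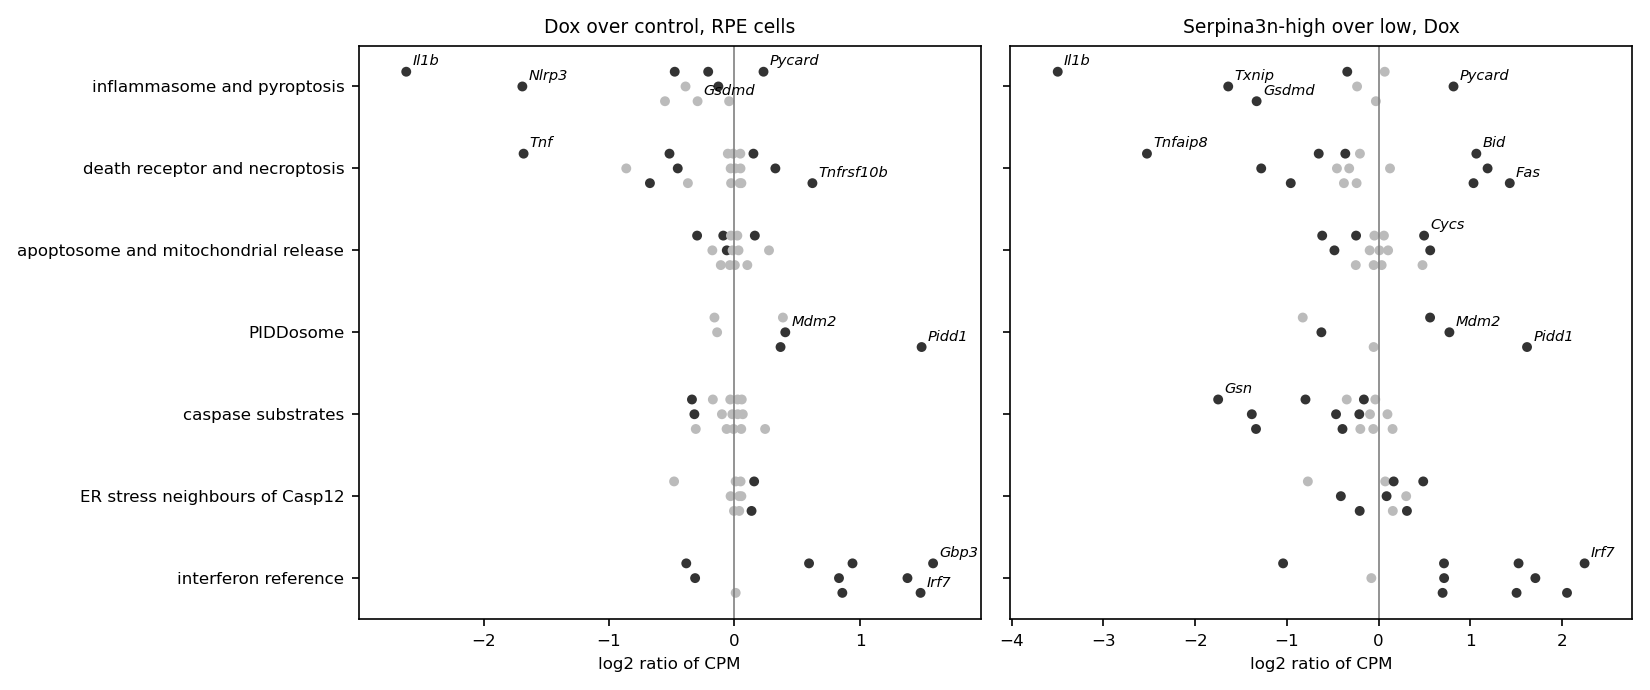
Log2 ratios of CPM for the genes of 7 lists with at least 20 UMIs, Dox over control in RPE cells (left) and Serpina3n-high over low cells of the Dox library (right); black points have a 95% interval that leaves out 0, grey points one that includes it, and points are spread vertically to be seen. In the left panel the interferon list lies furthest to the right (median 0.85), and Il1b, Nlrp3 and Tnf lie to the left of -1.

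Of 15 genes encoding caspase substrates, none had an interval above 0 and 2 below (9.08% and 14.7% of all genes), with a median of -0.02, and Lmna, the lamin that Casp6 cuts, gave -0.32 (-0.43 to -0.21). Of 10 endoplasmic reticulum stress genes, 2 were above and none below, with a median of 0.04. The interferon genes were listed because interferon induces Casp1 and Casp4 in other settings. The list was also chosen with earlier results of these data known, and the study had reported higher interferon-beta responses after Dox. Its count is therefore a description and no independent support. In Dox-RPE 7 of 10 lay above and 2 below 0, against the same 9.08% and 14.7%, with a median of 0.85. Gbp3 gave 1.58 (1.44 to 1.73), Irf7 1.48 (1.27 to 1.70) and Ifit3 1.38 (1.30 to 1.46), while Irf1, 1 of the 2 below 0, gave -0.31 (-0.39 to -0.24). No inflammatory caspase had an interval above 0 in the same cells, but their counts were small. Casp1 had 2 control and 1 Dox UMIs, which cannot decide whether it changed, and Casp4 had 23 and 18.

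Over 22 points, the 11 cell groups in each library, the genes whose log2 level was most like each member among 13736 genes were sought by Pearson r as a description, with points that share library, depth and free RNA. The ranking holds for that measure: by Spearman's rho, none of the 3 genes stayed for Casp1, Casp8 and Casp9, 1 of 3 for Casp4, Casp6 and Casp12, and 2 of 3 for Casp2. Casp1 ran closest to Aim2 (r = 0.964), Bcl2a1d and Cd48, and Casp4 to P2rx7 (r = 0.925), Disc1 and Fabp5. Casp12 ran closest to Rhbdf1 (r = 0.943), Capn2 and Fkbp10. Casp6 ran with Fam181b (r = 0.929), Cdc42ep1 and Mal, and Casp8 with Tbrg4 (r = 0.920), Tyms and Ccdc86. Casp9 ran with Gin1 (r = 0.896), Cdkl2 and Scap, and Casp2 with Nob1 (r = 0.874), Preb and Ctu2. Between members the highest r was 0.63, for Casp1 and Casp8, and the 3 chromosome 9 neighbours gave 0.49 for Casp1 and Casp4, 0.14 for Casp4 and Casp12, and -0.40 for Casp1 and Casp12. The lowest r, -0.72, was that of Casp2 and Casp9.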

How the data were processed

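Per the labels and the study's methods, the authors made 10x 5′ libraries, aligned reads to mm10 and counted UMIs with Cell Ranger (4.0.0 in the matrix header). Deposited were raw UMI counts for each gene in 20381 control and 15649 Dox cells (117731270 and 103997248 UMIs). Cells with over 500 UMIs, 200 to 6000 genes, under 20% mitochondrial UMIs and a ratio of log10 genes to log10 UMIs beyond 0.8 were kept. They were integrated after SCTransform and clustered with Seurat 5.3.0 (3000 features, 40 components, resolution 0.1, with 0.2 as alternative). Clusters were named when at least 3 markers of a list reached 10 CPM and 1 was among the 10 leading genes, and cells of the RPE rule were then set apart. The cluster led by Hbb-bs, which the melanocyte list had matched, was left without a cell type name. So were the cluster led by Chil3 and the Cd209a cluster, which the macrophage list had matched. UMIs were summed per group and given as CPM with exact Poisson intervals; shares have Clopper-Pearson and ratios exact conditional binomial intervals, at 95%. Without replicates no test, p-value or SE was made, and intervals cover counting error only. Scrublet (scanpy 1.11.5, expecting 0.8% of doublets per 1000 cells) scored every cell, and none was removed for its score. The same rate set the share of each library counted among the highest doublet scores. Counts over all genes used genes with at least 20 UMIs. On counts simulated with counting error alone for Dox over control in RPE cells, 95.49% of the intervals of 14215 genes held the true ratio. The simulation had no variation between cells, animals or libraries. It therefore checks the computation of the intervals and not how well they cover these data. Python 3.11.15 and scipy 1.17.1 were used.

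The members, gene lists and markers were chosen with earlier results of these data known. Named genes were the members, the 3 genes most like each and, of the lists, those past 2-fold in RPE cells and 10 fixed partners. Tnfrsf10b, Fas, Tnfrsf1a, Cycs, Mdm2, Nol3, Lmna, Irf1, Ripk3, Mlkl and Septin4 and the splits by C1q and Cd3 were chosen after their values were seen, as was the Chil3-led cluster. Alternatives were other gates, quality limits, thinning, doublets left out, other CPM totals and a centring on the median gene.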

Additional observations from a re-analysis of the deposited data

Results flagged for a closer look

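Some caspase ratios of Dox over control pointed in opposite directions in different cell groups, each with an interval of counting error that left out 0. For Casp4 the log2 ratio was 0.62 in the Cxcl10-led fibroblast-like cluster, -0.41 in the Cd209a cluster and -1.91 in the unnamed cluster led by Snhg7os (42 control against 6 Dox UMIs). For Casp12 it was 1.0 in the same unnamed cluster (28 against 30 UMIs), -0.77 in RPE cells and -0.87 in the cluster led by Hbb-bs (54 against 14 UMIs). In Serpina3n-low RPE cells the Casp12 interval included 0, in the main setting and in 10 of 11 others. The differences between the groups were not tested, since each condition had 1 library. They were picked from 69 ratios, of which 3 had an interval above and 4 below 0. Of all genes with at least 20 UMIs, 4.58% to 13.8% lay above 0 and 4.82% to 15.7% below, depending on the group, while the 69 ratios had no such minimum. The unnamed cluster had 978 control and 546 Dox cells with medians of 1878.5 and 1865 UMIs, and in it 10.2% of all genes had an interval above 0 and 8% below.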

How the results depend on the processing

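No paired analysis was possible because each condition had 1 library, and for the same reason none could be left out. Over the alternatives run, no ratio with an interval that left out 0 turned its direction. Of the ratios in RPE cells, all 76 of all cells, all 90 of Serpina3n-low cells and all 77 of high over low in Dox stayed within the main interval. The settings drew on largely the same UMIs and some main intervals were wide, so these counts say little. They include ratios whose interval came to include 0. With the Serpina3n limit at 2000 CPM, Casp8 moved to -1.67 for Dox over control in Serpina3n-high cells and to 1.81 for high over low in control. Casp9 in RPE cells ranged from 0.26 to 0.36 and kept an interval above 0 in 8 of 9 settings, and the exception was the gate on fibroblast markers under 1000 CPM, added after seeing the data. In Serpina3n-low cells (0.37 to 0.45) and for high over low in Dox (-1.03 to -0.75) Casp9 kept its side in 11 of 11 settings each. Casp12 in RPE cells ranged from -1.17 to -0.27, with intervals including 0 at 5 Rpe65 UMIs, without the gene limit, without the highest doublet scores and under the fibroblast gate. The high over low ratio of Casp12 in Dox kept its call in 3 of 10 settings.

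Shares of RPE cells with a UMI moved with the Rpe65 limit and depth. With at least 20 Rpe65 UMIs they were 38.5% (Casp6) and 14.8% (Casp9) in control and 39.9% (Casp6), 23.5% (Casp8) and 19.1% (Casp9) in Dox. With at least 5 they were 0.487% (Casp1), 28.9% (Casp6), 15.5% (Casp8), 10.4% (Casp9) and 3.89% (Casp12) in control, and 3.48% (Casp2), 27.1% (Casp6), 15.6% (Casp8), 12% (Casp9) and 3.07% (Casp12) in Dox. Thinned to 2000 UMIs they were 0.00729%, 0.797%, 0.237%, 5.06%, 2.74%, 1.59% and 0.426% in control for Casp1, Casp2, Casp4, Casp6, Casp8, Casp9 and Casp12, and 0.648%, 0.251%, 4.58%, 2.55%, 2.02% and 0.332% in Dox from Casp2 on. Casp1 was at 0 in Dox with a mitochondrial share under 0.1, and Casp12 at 1.42% and 0.902% without the highest doublet scores. Genes past 2-fold were 57 higher and 237 lower at a minimum of 50 UMIs, and 1693 and 2173 with at least 1 UMI. By Spearman's rho, 0 of the 3 genes most like Casp1, Casp8 and Casp9, and 1 of 3 for Casp4, Casp6 and Casp12, stayed. Of the levels by cell type, 534 stayed within their interval and 26 did not. The levels without a limit on genes and complexity were not run by cell type, since the removed cells have no cluster.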
